A study of Mus musculus with 6 samples.

Results

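Imprinted genes are transcribed mainly from the copy inherited from 1 parent, and many of them set how much an embryo grows. Paternally expressed genes such as Igf2, Dlk1, Peg3, Mest, Plagl1 and Ndn and maternally expressed genes such as H19, Meg3, Grb10 and Cdkn1c lie in clusters whose parental marks are set in the germ line as DNA methylation. In mouse embryos several of them vary together and Plagl1, a zinc-finger transcription factor, is known to act on others of the group. These 10 genes were followed in ectoderm over the eye with and without Pax6, the paired-box and homeodomain factor needed for the lens. They were chosen by gene symbol, and a gene counted as expressed where, for any of its probes, 3 or more of the 6 arrays gave a detection p-value under 0.01. The annotation of the 45281 probes gave 21 probes to 9 of the 10 genes, and H19 was not analysed here. Of the 21 probes 19 passed the filter, so that 9 genes stand among the 9190 tested.

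The Pax6-/- group was 3 Illumina bead arrays of surface ectoderm and the WT group 3 arrays of lens placode, both from embryos at embryonic day 9.5 on a mixed FVB and 129 background. The sources used here do not give the Pax6 allele or the sex of the embryos. The tissue was cut out by laser from frozen sections, and RNA of 3 embryos was pooled per genotype and amplified to cDNA in triplicate, so replicates differ only by amplification and array. Every p-value therefore sets 1 pool against the other and understates the uncertainty over embryos. The array codes in the labels begin with 1 of 2 numbers, which were read here as slides, though the labels do not name them so. By this reading slide 1 held Pax6-/- arrays 2 and 3 with WT arrays 1 and 3, and slide 2 held Pax6-/- array 1 with WT array 2. The dissected tissue carries a different label in each genotype, and tissue and genotype cannot be told apart. The probes do not separate the parental copies, so every value is the sum of both.

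On each array 16242 to 17735 probes were detected. The member probes were read from 25 to 76 beads each, with a standard error over beads of 2.07% to 9.28% of the signal for the 19 probes that passed the filter. Of the lens marker list 5 of 10 tested genes fell and 0 rose. Of these, Maf was detected on all 3 WT arrays and no Pax6-/- array, so it passed the filter only through WT. The summed linear intensity of the list was 16656 to 17164 on Pax6-/- arrays and 20282 to 21523 on WT arrays. Of all 9190 tested genes 1.51% rose, 1.76% fell and 16.9% had an unadjusted p under 0.05. Other cell types' markers moved too. Summed mesenchyme markers, of which 3 of 8 rose and 1 fell, stood at 7370 to 7876 on Pax6-/- arrays and 5175 to 5671 on WT arrays. Such sums are set mostly by the brightest genes. In the mesenchyme list that was Sox9, at a mean log2 intensity of 12.14 in Pax6-/- and 11.39 in WT. The mesenchyme gene that fell was Pdgfra (-1.23). Summed erythroid markers, of which 3 of 4 rose, stood at 4417 to 4896 on Pax6-/- arrays and 2139 to 2438 on WT arrays. Of the optic vesicle and neural tube markers 0 of 6 passed the test and 3 had an unadjusted p under 0.05. Of these, Lhx2 was detected on all 3 Pax6-/- arrays and no WT array, so it was tested only through Pax6-/-. The summed markers, in which the WT values of Lhx2 are background, stood at 1256 to 1434 on Pax6-/- arrays and 1029 to 1152 on WT arrays. Pdgfrb, Col1a1, Sox10, Lum and Dcn of the mesenchyme list, Pecam1, Cdh5, Kdr, Tek and Tie1 of the endothelial list and Ptprc, Adgre1, Mrc1 and Cx3cr1 of the macrophage list were not detected on any array. Foxe3 of the lens list, Sox1 of the neural list and Gata1 of the erythroid list were also undetected. The surface ectoderm list, of which 4 of 12 rose, summed to 21243 to 22183 on Pax6-/- arrays and 20899 to 22371 on WT arrays. It shares Cdh1 and Epcam with the lens list. All 3 tested sex-linked genes passed the test as well, with Xist higher and Eif2s3y and Kdm5d lower in the Pax6-/- pool. Xist changed by 1.54. Eif2s3y and Kdm5d were detected on all 3 WT arrays and no Pax6-/- array, so they passed the filter only through WT. This difference in sex-linked transcripts between the pools cannot be told apart from genotype. The part of these differences in the changes below was not tested, and fewer cells of a type cannot be told apart from less RNA per cell.

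The sequences before the starts of 8 members were read from RefSeq (GRCm38.p6), as the 250 bases before each of 15 annotated starts. They are shown because methylation of imprinted genes is kept at CpG-rich stretches, and because the windows differ in the letters known from other work on the group. The searched letters were TGCCGC, known as the core bound by the imprint-maintaining zinc-finger protein ZFP57, GGGGCCCC, known as a site bound by Plagl1, and the homeodomain dimer sites, TAAT followed by ATTA after 2 or 3 bases of any kind, each on both strands. TGCCGC was present in 4 of the 15 member windows (in Plagl1, Meg3 and the 2 overlapping Mest windows) and in 8.68% of all 32851 windows. GGGGCCCC was present in 1 member window, that of Peg3, and in 0.889% of all windows. The homeodomain sites were present in 0 member windows and, with 2 and with 3 bases between, in 0.384% and 0.463% of all windows, and no match says only that these letters are not in the window. Of the 15 windows 12 held at least 6 CpG, the median of all windows, and the first Grb10 window held 40. The 4 windows below are those with a match, 1 per gene, 5′ to 3′ on the strand of the gene, with the matched letters in capitals (GCGGCA is TGCCGC on the other strand). They lie at chr10:13090582-13090831 on the plus strand for Plagl1, at chr6:30737800-30738049 on the plus strand for Mest, at chr12:109540746-109540995 on the plus strand for Meg3 and at chr7:6730420-6730669 on the minus strand for Peg3.
Plagl1: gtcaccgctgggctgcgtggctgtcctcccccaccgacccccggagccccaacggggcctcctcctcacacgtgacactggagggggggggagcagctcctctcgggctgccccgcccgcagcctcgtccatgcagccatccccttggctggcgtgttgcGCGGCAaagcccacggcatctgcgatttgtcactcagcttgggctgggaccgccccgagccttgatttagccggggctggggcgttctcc
Mest: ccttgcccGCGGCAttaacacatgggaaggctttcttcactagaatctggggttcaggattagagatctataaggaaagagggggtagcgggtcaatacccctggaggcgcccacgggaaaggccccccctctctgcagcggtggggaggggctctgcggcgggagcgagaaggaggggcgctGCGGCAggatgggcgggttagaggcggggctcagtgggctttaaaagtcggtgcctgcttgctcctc
Meg3: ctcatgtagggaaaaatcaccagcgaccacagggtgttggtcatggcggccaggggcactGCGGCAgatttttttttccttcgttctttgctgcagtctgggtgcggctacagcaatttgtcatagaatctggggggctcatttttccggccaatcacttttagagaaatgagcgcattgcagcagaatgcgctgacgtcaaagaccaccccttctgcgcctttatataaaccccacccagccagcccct
Peg3: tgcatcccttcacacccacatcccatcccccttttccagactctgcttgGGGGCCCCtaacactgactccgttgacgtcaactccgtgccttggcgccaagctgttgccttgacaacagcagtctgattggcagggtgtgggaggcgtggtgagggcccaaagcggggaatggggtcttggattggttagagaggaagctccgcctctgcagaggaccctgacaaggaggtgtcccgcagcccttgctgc
Neither methylation nor binding was measured, and a match is a description of the letters only.

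Loss of Pax6 was compared with WT to ask which of these genes change in eye ectoderm. By the brightest kept probe of each gene, Igf2, the paternally expressed fetal growth factor, was the only member that passed the test. It was modestly higher in Pax6-/- ectoderm. Plagl1 and Dlk1 had higher means and Mest a lower one without passing, while Meg3, Peg3, Cdkn1c and Ndn had changes between -0.16 and 0.05. Grb10 stood at 0.18 by its brightest probe without passing, while its second probe passed at 0.79 (limma adjusted p = 0.00915 over all kept probes). Of the 9 tested members 1 rose, 0 fell and 8 did not pass (limma, adjusted p under 0.05 over all 9190 genes), or 11.1% of members against 3.28% of all genes, of which 1.51% rose and 1.76% fell. At an unadjusted p under 0.05 there were 4 members, against 16.9% of all genes. The groups did not overlap for 3 members, against 22.8% of all genes. By probe they did not overlap for 8 of the 19 kept member probes, against 21.2% of all 14535 kept probes. These 8 include several probes of 1 gene and the second Dlk1 probe, which was detected on no WT array. The median change of the members was 0.05 on the log2 scale and that of all tested genes -0.01, with 5 members above 0 and 4 below.

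**Figure D1:**
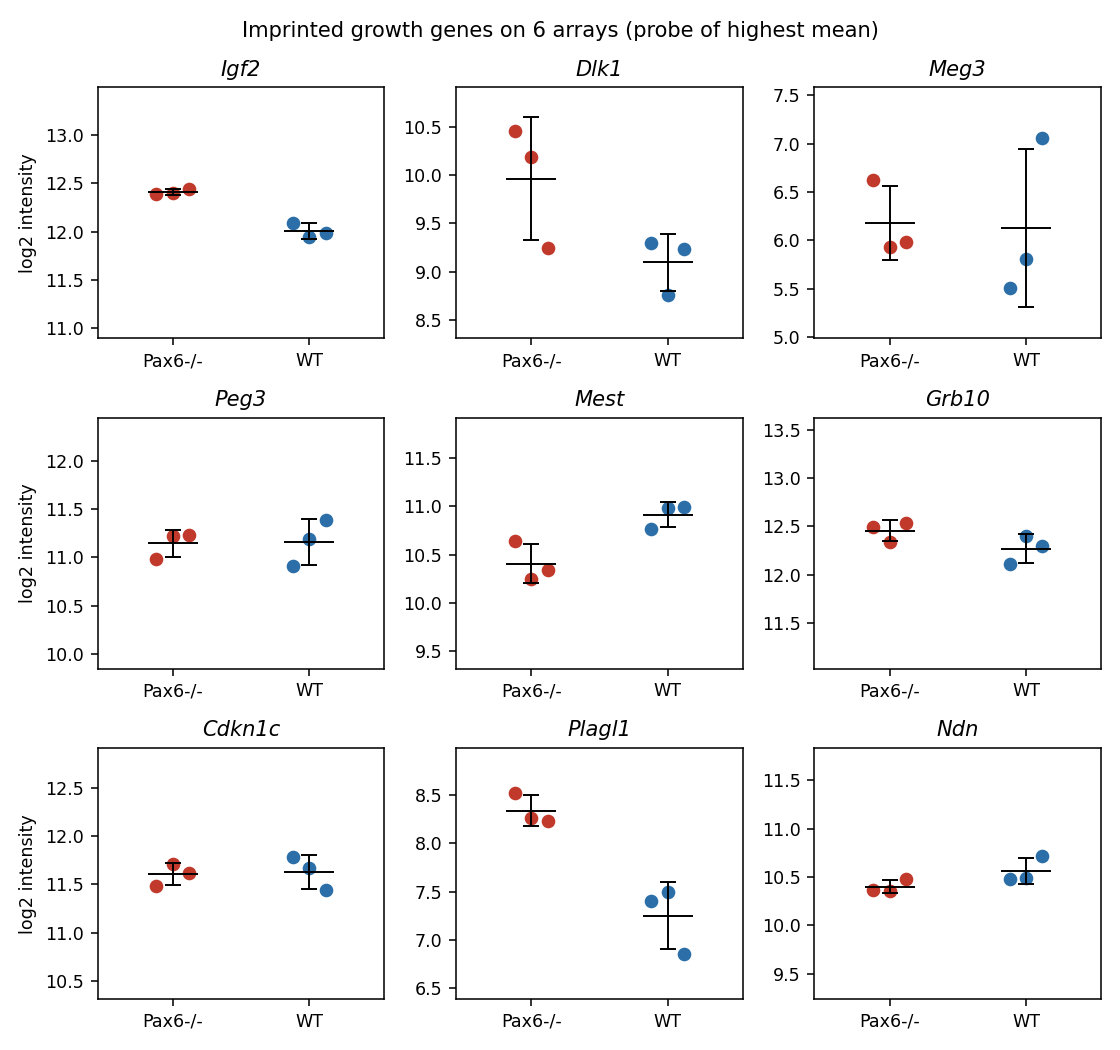
Normalised log2 intensity (vertical axis) of the probe that stands for each of 9 genes, on 3 Pax6-/- arrays (red) and 3 WT arrays (blue); points are arrays, bars are the mean and SD, and every panel spans the same 2.6 log2 units at its own level. The groups are separate for Igf2, Mest and Plagl1 and overlap for the other genes.

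The ligand Igf2 binds the IGF1 and insulin receptors and drives fetal and placental growth. Its single probe had log2 intensities of 12.39, 12.40 and 12.45 on Pax6-/- arrays 1, 2 and 3, against 12.09, 11.94 and 11.98 on WT arrays 1, 2 and 3. Every Pax6-/- array lay above every WT array, and the range within each genotype was smaller than the gap between the group means. Igf2 averaged 12.41 ± 0.03 in Pax6-/- and 12.01 ± 0.08 in WT (SD, n = 3 each). The change was 0.41 (SE 0.07, 95% interval 0.24 to 0.57, limma adjusted p = 0.0133), or 1.32-fold higher. Before normalisation the mean bead signals were 5576, 5119 and 5634 on Pax6-/- arrays and 4741, 4180 and 4170 on WT arrays, with no overlap either. The difference was 0.38 within slide 1 and 0.45 between the 2 arrays of slide 2. The change stayed above 0 under all 19 alternatives, but the call was lost without Pax6-/- array 2 (adjusted p = 0.0513), WT array 2 (0.0729) or WT array 3 (0.0592). Further settings that lost it were median scaling, which put the change at 0.25 (0.165), slide 1 alone (0.172), a fit with no intensity trend (0.23) and a test against 1.2-fold (0.529).

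Median scaling lowered the median change of the tested genes but did not move every gene alike. Igf2 went from 0.41 to 0.25 and Meg3 from 0.05 to 0.02, while Ctcfl went up from -0.14 to -0.01. Under it the median change of the tested genes was -0.13, against -0.01 with quantile normalisation, and its calls were 93 higher and 264 lower, against 139 higher and 162 lower. Relative to these medians Igf2 stood at 0.38 with median scaling and at 0.42 with quantile normalisation. Its SE was 0.09 with median scaling and 0.07 with quantile normalisation, and why its call was lost was not tested.

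Grb10 encodes an adaptor that binds the insulin and IGF1 receptors and restrains growth in mouse, and its maternal copy is the one used in most tissues. Its probes gave unlike values. The brightest probe, annotated to the RefSeq transcript, had 12.49, 12.34 and 12.54 on Pax6-/- arrays against 12.11, 12.40 and 12.30 on WT arrays. These groups overlapped, and the change was 0.18 (SE 0.09, 95% interval -0.02 to 0.38, limma adjusted p = 0.336). The second probe, annotated to a separate cDNA clone, had 10.31, 10.43 and 10.27 on Pax6-/- arrays against 9.66, 9.42 and 9.58 on WT arrays. Here every Pax6-/- array lay above every WT array, by a gap several times the SD within a genotype. The second probe was 0.79 higher in Pax6-/- (95% interval 0.49 to 1.08, limma adjusted p = 0.00915 over all 14535 kept probes, of which 2.77% passed). It stayed above 0 in all 17 alternatives run and past the threshold in 13, being lost without Pax6-/- array 2 (adjusted p = 0.0545), on slide 1 alone (0.129), against 1.2-fold (0.0724) and with no intensity trend (0.0853). Within slides it stood at 0.73 on slide 1 and 0.89 on slide 2. The change of the second probe exceeded that of the first by 0.60 (SE 0.17, 95% interval 0.22 to 0.98), which did not pass in a limma fit of such within-array differences over all 5345 further probes (unadjusted p = 0.00546 and adjusted p = 0.311, where 9.37% of the differences had an unadjusted p under 0.05 and 0.0748% an adjusted one). With both kept probes averaged Grb10 passed (0.49, adjusted p = 0.0107). Probe 3 was not detected on any array.

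**Figure D2:**
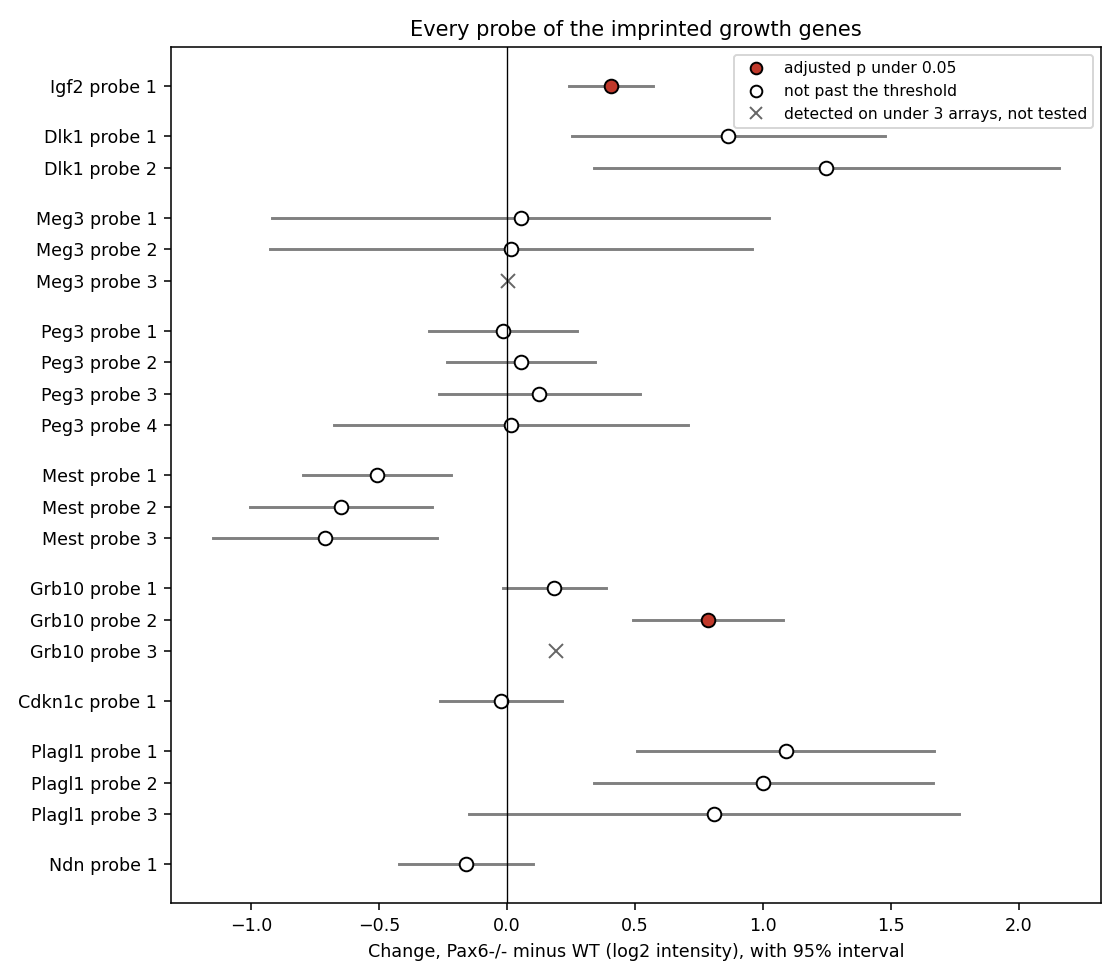
Change of each of 21 probes, Pax6-/- minus WT in log2 intensity (horizontal axis), with the 95% interval from the fit of every kept probe; filled points passed at an adjusted p under 0.05 and crosses mark probes detected on fewer than 3 arrays. The Igf2 probe and the second Grb10 probe are filled, and the 3 Mest probes lie below 0 while the 3 Plagl1 probes and both Dlk1 probes lie above it.

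Plagl1 encodes a zinc-finger factor that can arrest the cell cycle, and in mouse it acts on Igf2, H19 and Cdkn1c among other imprinted genes. Its brightest probe had log2 intensities of 8.52, 8.26 and 8.23 on Pax6-/- arrays, against 7.40, 7.49 and 6.85 on WT arrays. All 3 Pax6-/- arrays lay above the WT arrays. The means were 8.34 ± 0.16 in Pax6-/- and 7.25 ± 0.35 in WT (SD, n = 3 each), and the change of 1.09 (SE 0.27, 95% interval 0.50 to 1.68, or 2.13-fold) narrowly missed the threshold (limma adjusted p = 0.0533). The second probe had 7.24, 7.42 and 7.35 on Pax6-/- arrays against 6.30, 6.59 and 6.12 on WT arrays, again without overlap, and stood at 1.00 (adjusted p = 0.119 over all kept probes). The third was detected on 2 Pax6-/- arrays and 1 WT array and stood at 0.81 (adjusted p = 0.41). Plagl1 was 1.12 higher within slide 1 and 1.03 within slide 2. It passed under 2 of 19 alternatives, without background correction (0.69, adjusted p = 0.0485) and with detection required on all 6 arrays (adjusted p = 0.049), where the same change was adjusted over fewer genes. Over the others the adjusted p reached 0.224.

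Mest, which encodes a protein of the alpha/beta hydrolase fold and is paternally expressed in mesoderm and other embryonic tissues, was the member with the lowest change. Its brightest probe had 10.64, 10.25 and 10.34 on Pax6-/- arrays, against 10.77, 10.99 and 10.99 on WT arrays. Pax6-/- array 1 came close to WT array 1, but the groups did not overlap. The change was -0.51 (SE 0.13, 95% interval -0.80 to -0.22, limma adjusted p = 0.0662). The other 2 probes also had every Pax6-/- array below every WT array, the second at 9.18 to 9.69 on Pax6-/- arrays against 10.06 to 10.19 on WT arrays, and the third at 8.21 to 8.73 on Pax6-/- arrays against 9.02 to 9.36 on WT arrays. They stood at -0.65 and -0.71 (adjusted p 0.0628 and 0.0961 over all kept probes). The 3 probes are of 1 gene in the same RNA and are not replicates. Of all kept probes 21.2% had groups that did not overlap. The first probe passed with median scaling (-0.67, adjusted p = 0.032) and without Pax6-/- array 1 (-0.62, adjusted p = 0.0474), and missed the threshold in the other 17 alternatives (adjusted p up to 0.551).

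Dlk1 and Meg3 are neighbours on chromosome 12 under shared imprinting control, Dlk1 encoding a transmembrane protein with EGF repeats from the paternal copy and Meg3 a long noncoding RNA from the maternal copy. The brightest Dlk1 probe had 10.46, 10.19 and 9.24 on Pax6-/- arrays, against 9.29, 8.76 and 9.23 on WT arrays. Pax6-/- arrays 1 and 2 lay above the WT arrays and Pax6-/- array 3 lay among them. The change was 0.87 (SE 0.28, 95% interval 0.25 to 1.48, limma adjusted p = 0.134), and it depended on the arrays kept. It was 1.23 without Pax6-/- array 3 (adjusted p = 0.0159), 0.62 without Pax6-/- array 1 (adjusted p = 0.331) and 0.69 without WT array 2 (adjusted p = 0.327). It was 0.45 within slide 1 and 1.69 within slide 2, the slide that held Pax6-/- array 1. The second, dim probe had the reverse order among Pax6-/- arrays, at 5.76, 5.98 and 7.13, against 5.14, 4.81 and 5.17 on WT arrays. It was detected on all 3 Pax6-/- arrays and no WT array, so it passed the filter through Pax6-/- alone. With WT counted at the detection limit its mean was 1.60-fold higher in Pax6-/-, a bound that carries no sampling error. The probe did not pass (95% interval of the log2 change 0.34 to 2.16, limma adjusted p = 0.153 over all kept probes). With the 2 probes averaged Dlk1 passed (adjusted p = 0.0266), but that average holds the dim probe, which WT arrays measured only as background, so its size is not a measured change.

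Meg3 lay close to the detection limit. Its brightest probe had 6.62, 5.93 and 5.98 on Pax6-/- arrays against 5.51, 5.81 and 7.06 on WT arrays, and the second had 6.37, 6.04 and 5.65 on Pax6-/- arrays against 5.57, 5.55 and 6.89 on WT arrays. The highest array for both was WT array 3. The third probe was detected only on Pax6-/- array 3 and WT array 2, where it reached 6.43 and 7.14. The change of the brightest probe was 0.05 with a 95% interval of -0.91 to 1.02 (limma adjusted p = 0.972), so a change of nearly 2-fold either way was not excluded. Its sign differed between slides, at -0.33 on slide 1 and 0.81 on slide 2, and it turned below 0 without background correction (-0.0069).

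**Figure D3:**
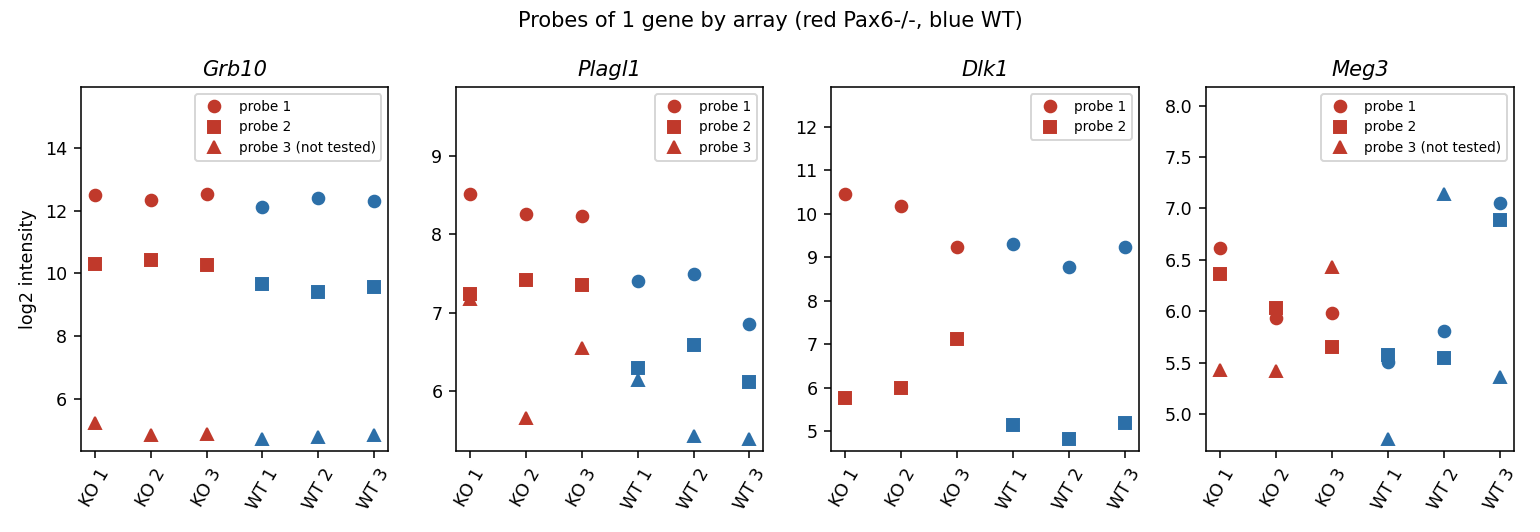
Normalised log2 intensity (vertical axis) of every probe of Grb10, Plagl1, Dlk1 and Meg3 on each array (KO 1 to KO 3 are the Pax6-/- arrays, in red; WT 1 to WT 3 in blue), with the marker shape giving the probe. The second Grb10 probe is separate between genotypes while the first is not, and the Dlk1 probes peak on different Pax6-/- arrays.

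The other members had small changes with narrow intervals. Peg3, a paternally expressed zinc-finger protein linked to growth and maternal care in mouse, had 10.98, 11.22 and 11.23 on Pax6-/- arrays against 10.91, 11.18 and 11.38 on WT arrays. Its change was -0.01 (95% interval -0.30 to 0.28, limma adjusted p = 0.974), and its other 3 probes, which all overlapped between genotypes, stood at 0.02, 0.06 and 0.13. Its sign was not fixed, since it turned above 0 with the kept probes averaged (0.045) and on slide 1 alone (0.073). Cdkn1c, the maternally expressed cyclin-dependent kinase inhibitor p57, had 11.49, 11.72 and 11.62 on Pax6-/- arrays against 11.79, 11.67 and 11.44 on WT arrays. Its change was -0.02 (95% interval -0.26 to 0.21, adjusted p = 0.946), and on slide 1 alone it was 0.053. Ndn, which encodes necdin, a growth-suppressing MAGE-family protein of the Prader-Willi region, had 10.37, 10.35 and 10.48 on Pax6-/- arrays against 10.48, 10.49 and 10.72 on WT arrays. Its highest Pax6-/- array met its lowest WT array, and the change was -0.16 (95% interval -0.42 to 0.10, adjusted p = 0.542). For these 3 genes the intervals leave out changes of 1.5-fold in either direction between the pools.

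The tested genes next to the members on their chromosomes were compared as well. Of the 16 neighbours 0 passed the test (limma, adjusted p under 0.05), against 3.28% of all genes, and 2 of them, or 12.5%, had an unadjusted p under 0.05, against 16.9% of all genes. Those named here were chosen with their values in view. On chromosome 7 the tested neighbours of Igf2 were Mrpl23, a mitochondrial ribosomal protein gene that stood at 0.03 (SE 0.10), and Th, which encodes tyrosine hydroxylase. Th was detected on all 3 Pax6-/- arrays and no WT array, so it was tested only through Pax6-/-. With WT counted at the detection limit its mean was 1.22-fold higher there, a bound that carries no sampling error, and it did not pass (limma adjusted p = 0.135). On chromosome 12 the noncoding RNA Rian, which follows Meg3, was detected on 3 Pax6-/- arrays and 2 WT arrays and stood at 1.03 (SE 0.39, adjusted p = 0.205). Snurf, next to Ndn in the Prader-Willi region, stood at -0.26 (SE 0.12) and Copg2, next to Mest, at -0.03 (SE 0.36).

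Other imprinted genes were mostly not called. Of 32 tested genes 1 rose, 0 fell and 31 did not pass, or 3.13% against 3.28% of all genes. Their median change was 0.08, and 18 of the 32 lay above 0. Peg10, a paternally expressed gene derived from a retrotransposon and needed for the placenta in mouse, had 9.19, 9.46 and 9.29 on Pax6-/- arrays against 7.39, 8.26 and 8.59 on WT arrays. All Pax6-/- arrays lay above the WT arrays, among which array 1 was the lowest. It rose by 1.24 (SE 0.28, limma adjusted p = 0.0407), and by 0.89 without WT array 1 (adjusted p = 0.0651). The call was also lost without WT array 2 or any 1 of the Pax6-/- arrays, on slide 1 alone, and with the slide as a block, median scaling, no detection filter, no intensity trend or a threshold of 1.2-fold (its adjusted p reached 0.149). Paternally expressed genes had a median of 0.08 over 13 genes, with 1, or 7.69%, called, against 3.28% of all genes. An unadjusted p under 0.05 was reached by 3 of them, or 23.1%, against 16.9% of all genes. Maternally expressed genes had a median of 0.08 over 19, with 0 called and 2, or 10.5%, at an unadjusted p under 0.05. These 2 were Rian and Th, also the 2 neighbours above at that p, and Th was tested only through Pax6-/-. Several neighbours, Snurf and Copg2 among them, are in these imprinted lists, so the tallies of neighbours and imprinted genes overlap. Genes were listed as imprinted in mouse, and whether each is so in this tissue was not measured. The brightest of those listed as maternally expressed were the histone chaperone gene Nap1l4, at -0.03 (SE 0.07), and Igf2r, whose product clears Igf2, at -0.10 (SE 0.12). Both of these changes turned above 0 under some settings (up to 0.03 for Nap1l4 on slide 1 alone and 0.00079 for Igf2r with 1 array left out).

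**Figure D4:**
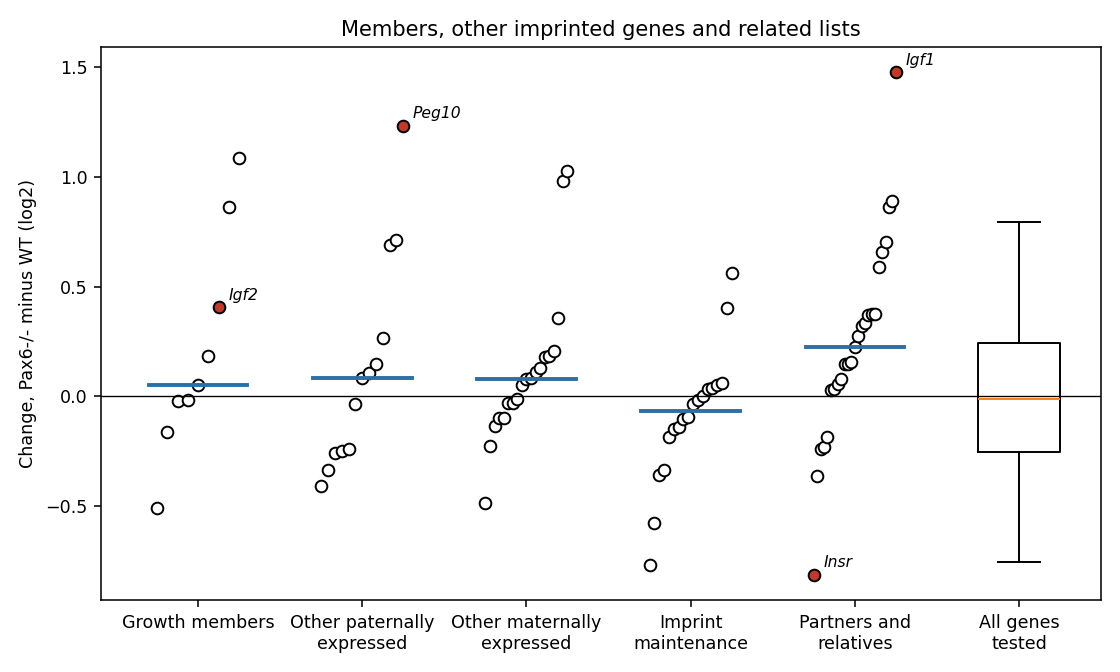
Change of each tested gene, Pax6-/- minus WT in log2 intensity (vertical axis), for the 9 members, the other imprinted genes and 2 related lists; filled points passed at an adjusted p under 0.05, blue bars are medians, and the box for all 9190 genes spans the quartiles with whiskers at the 5th and 95th percentiles. The called genes are Igf2, Peg10, Igf1 and Insr, and the list medians lie between -0.06 and 0.22.

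Of 18 tested genes that keep imprints, among them DNA methyltransferases and their partners, 0 passed (limma, adjusted p under 0.05), against 3.28% of all genes. An unadjusted p under 0.05 was reached by 3 of them, or 16.7%, against 16.9% of all genes, so both shares were near those of all genes. Their median change was -0.06. The brightest probes were those annotated to Ctcfl, a CTCF paralogue, at -0.14 (SE 0.08), and to Dnmt1, the maintenance methyltransferase, at -0.02 (SE 0.08). The Ctcfl probe averaged 15.03 on WT arrays against 12.38 for Dnmt1, and which transcript it reads was not checked. The Ctcfl probe, at 14.77, 14.77 and 15.12 on Pax6-/- arrays and 15.12, 14.98 and 14.98 on WT arrays, took some values more than once, because quantile normalisation gives equal ranks on different arrays the same value. Ctcfl stood at 0.069 in the authors' normalised table and passed at -0.28 without Pax6-/- array 3 (adjusted p = 0.0232), and Dnmt1 turned above 0 without WT array 1 (0.043). Dnmt3l, Dppa3 and Zfp42 were not detected on any array.

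Among 25 tested partners and relatives of the members 1 rose and 1 fell, or 8% against 3.28% of all genes, with a median of 0.22. An unadjusted p under 0.05 was reached by 8 of them, or 32%, against 16.9% of all genes. Igf1, which like Igf2 signals through the IGF1 receptor, had 8.47, 8.69 and 8.51 on Pax6-/- arrays against 6.71, 7.07 and 7.45 on WT arrays. The groups were more than 1 log2 unit apart, and Igf1 rose by 1.48 (SE 0.27, limma adjusted p = 0.0127). Its call was lost without Pax6-/- array 2 (adjusted p = 0.0707), on slide 1 alone (0.105) and with the kept probes averaged (0.0764). Insr, the insulin receptor, had 8.40, 8.70 and 8.69 on Pax6-/- arrays against 9.51, 9.58 and 9.15 on WT arrays, without overlap. It fell by 0.82 (SE 0.19, adjusted p = 0.0437), a call lost under 12 of 19 alternatives, each array left out among them (adjusted p up to 0.336). The receptor gene Igf1r stood at 0.70 (SE 0.28, adjusted p = 0.232), and the RNA-binding genes Igf2bp1 and Igf2bp3, whose products bind Igf2 transcripts, at 0.16 (SE 0.10) and 0.15 (SE 0.12). The relatives of Cdkn1c stood at 0.86 for Cdkn1a (SE 0.37, adjusted p = 0.261) and 0.22 for Cdkn1b (SE 0.24). These last 5 genes were chosen with their values in view.

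**Figure D5:**
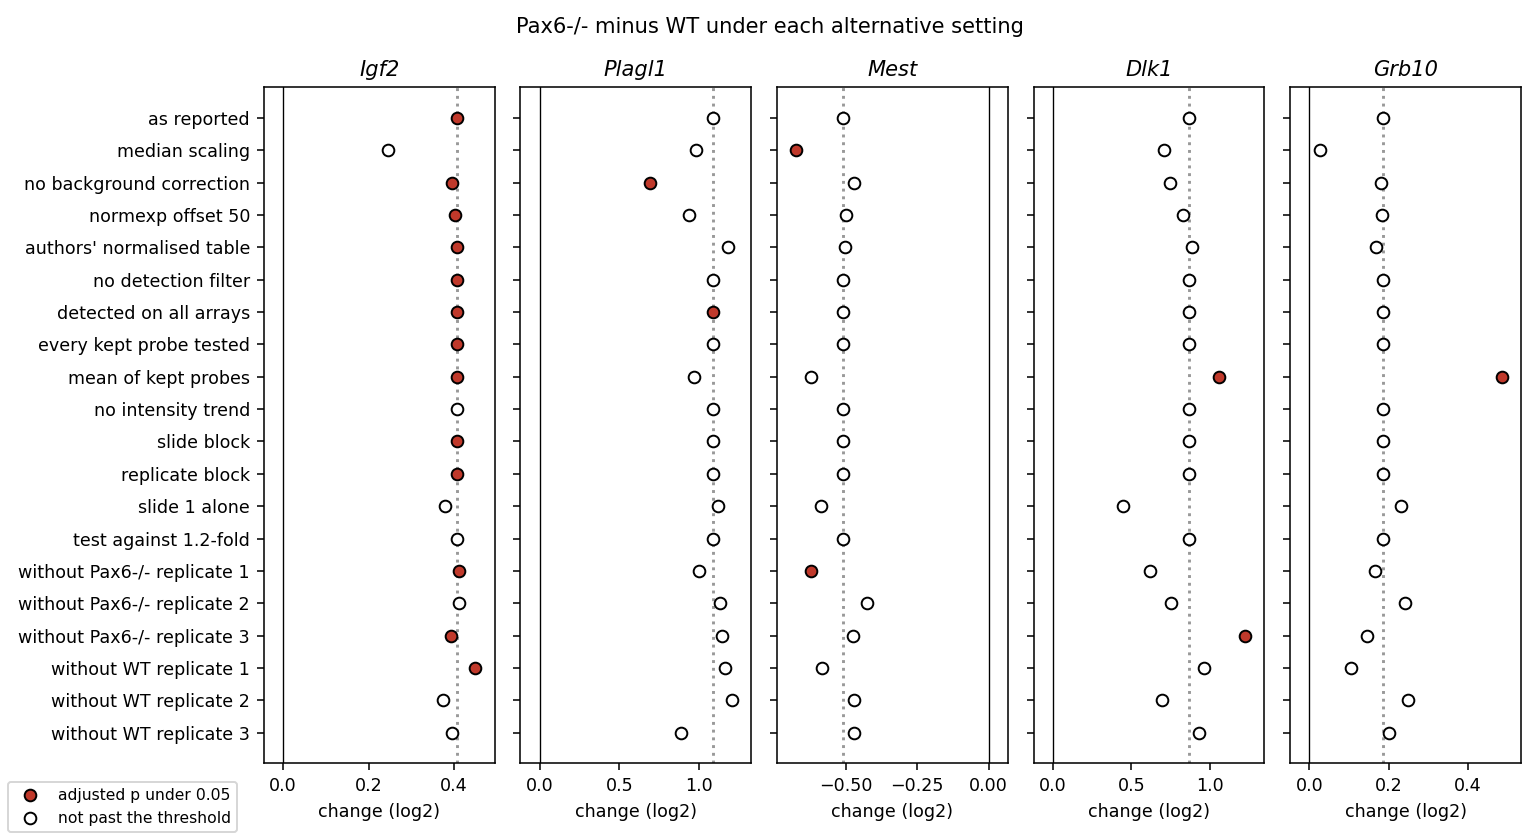
Change of 5 members, Pax6-/- minus WT in log2 intensity (horizontal axes, each on its own scale), as reported and under 19 alternative settings listed on the vertical axis; filled points passed at an adjusted p under 0.05 and the dotted line is the reported value. The sign of each of the 5 genes is the same in every setting shown, while which of them passes changes with the setting.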

How the data were processed

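The titles grouped the arrays into 3 Pax6-/- and 3 WT arrays of laser-captured ectoderm. Each deposited intensity is a probe's mean bead signal before any normalisation, and the deposited detection p-value, bead number and bead standard error stand beside them, per the file headers. GenomeStudio was used, per the submitters' processing notes. A second deposited table of normalised intensity values, whose method is not given in the sources used here, was an alternative only. It is linear, with column medians of 15.49 to 15.51 and 25.1% to 25.2% of values below 0, and was floored at 16 before log2.

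Here nec (normexp, offset 16) of limma 3.58.1 in R 4.3.3 corrected the background from the detection p-values, followed by quantile normalisation and log2. Symbols came from the platform annotation, updated by Entrez identifier through RefSeq for 34807 probes. It gave 34885 probes 1 symbol, 18 several and 10378 none, and only the first were used. Probes detected (p under 0.01) on at least 3 arrays were kept, and the kept probe of highest mean stood for a gene. Genotypes were compared with lmFit and eBayes (intensity trend, two-sided, Benjamini-Hochberg over all 9190 genes), and the fit was tested on simulated data. For a probe undetected in 1 genotype the bound is the other genotype's mean over this one's. In the latter each array counts with its lowest detected value or the probe's own, whichever is higher. The bound carries no sampling error. Every member is named, and from the imprinted, maintenance and partner lists, but not the cell type markers, every called gene or, where there was none, the 2 brightest. The members and lists were chosen with earlier results of these data known. Replicate numbers are shared between genotypes, but same-numbered arrays did not deviate together (correlations over genes -0.026, -0.024 and -0.002). The number of arrays limits the precision.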

Additional observations from a re-analysis of the deposited data

How the results depend on the processing

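Each result was recomputed under 19 alternatives. The count of 301 called genes became 192 with no detection filter, 176 without an intensity trend, 182 with the replicate number as a block, 77 on slide 1 alone, 132 in a test against 1.2-fold and 144 to 210 with 1 array left out. The pairing check found no shared deviation for the replicate numbers, so this block carries no design information. Under it Igf2 still passed (adjusted p = 0.0416) and no call of a member changed, while the partner gene Insr no longer passed (0.0895). The count of 1 called member (Igf2) became 2 without background correction (with Plagl1), 2 with detection on all 6 arrays (with Plagl1), 2 with every kept probe tested (with Grb10), 3 with the kept probes averaged (with Grb10 and with Dlk1, whose average holds a probe detected on no WT array), 0 on slide 1 alone, against 1.2-fold and with no intensity trend, and 0 to 2 with 1 array left out. With median scaling it stayed at 1, but that gene was Mest. The count of 1 other imprinted gene (Peg10) became 0 with median scaling, with no detection filter, with the slide as a block, on slide 1 alone and against 1.2-fold, and 0 to 1 with 1 array left out. Without an intensity trend it was 1, and that gene was Th, which was detected on no WT array and so entered the test only through Pax6-/-. Signs turned for changes near 0. Meg3 was -0.0069 without background correction, -0.33 on slide 1 alone and -0.25 to 0.52 with 1 array left out. Peg3 was 0.045 with the kept probes averaged, 0.073 on slide 1 alone and -0.14 to 0.096 with 1 array left out. Cdkn1c was 0.053 on slide 1 alone and -0.12 to 0.056 with 1 array left out. Nap1l4 was 0.030 on slide 1 alone and -0.063 to 0.0084 with 1 array left out, Igf2r -0.18 to 0.00079, Dnmt1 -0.062 to 0.043, and Ctcfl 0.069 in the authors' table. Fewer arrays or more genes tested account for part of the lost calls by construction, and for the rest the cause was not tested. Igf2, Dlk1, Mest, Grb10, Plagl1 and Ndn kept their sign under all 19 alternatives. Meg3, the second Dlk1 probe and the third Plagl1 probe were not above background on every array, which limits what their changes can show.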
